A study of Mus musculus with 6 samples.

Results

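The 42 genes described here encode proteins that copy DNA during S phase: 11 license origins, 6 activate the helicase, 6 form the sliding clamp and its loader, 6 belong to the primase and polymerases, 4 bind unpaired strands or join Okazaki fragments, 2 form ribonucleotide reductase, 4 are E cyclins or activator E2F factors, and 3 act on new chromatin and its methylation. They were chosen by gene name from this machinery, and all 42 names occurred once in a table of 46452 genes. Messenger RNA was sequenced from the hearts of 10-day-old mice in 6 libraries. Of these, 3 carried the label Nat10-CKO, which stands for a conditional knockout of Nat10 (the gene of an RNA acetyltransferase), and 3 carried the label Nat10 flox/flox, which stands for alleles flanked by loxP sites. The series addresses NAT10 in heart development. Its labels give independent biological replicates and do not say which promoter drives Cre, which exons are deleted, or whether both groups share a transgene. Levels are in FPKM (fragments per kilobase of gene, scaled by library size) and can be set side by side between genes.

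Before S phase, the origin recognition complex, CDC6 and CDT1 load the MCM2 to MCM7 ring onto DNA. CDC45 and GINS turn that ring into a moving helicase, RFC places the PCNA clamp, and the polymerases extend primers laid down by polymerase alpha and primase. Many of these genes are transcribed under E2F factors at the passage into S phase. Heart muscle cells of the mouse stop dividing soon after birth, while endothelial cells, fibroblasts and other cells of the heart go on dividing for longer.

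Between 35243886 and 35854754 reads fell in genes in the Nat10-CKO libraries and between 31155521 and 38051266 in the Nat10 flox/flox libraries. Nat10 itself rose in Nat10-CKO, at 8.28, 8.66 and 10.2 FPKM, against 3.75, 4.18 and 4.71 FPKM in Nat10 flox/flox (2.14-fold, log2 fold change 0.94 ± 0.12 SE, limma adjusted p = 0.00142). A rise is not the direction that a knockout label brings to mind. A single value per gene does not show whether floxed exons are deleted, so the deletion was not tested. Every direction given here is that of the libraries labelled Nat10-CKO. Mitochondrially encoded genes took 7.56% to 9.26% of reads in Nat10-CKO libraries and 16.6% to 18.3% in Nat10 flox/flox libraries. The second principal component set Nat10 flox/flox replicate 1 apart, and this library held transcripts of neurons: the 8 neuron and ganglion markers summed to 376 FPKM there, against 3.70 and 4.40 FPKM in its group's other libraries. The third component set Nat10-CKO replicate 1 apart.

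Replication genes were lower in the Nat10-CKO hearts more often than they were higher. Of the 42 genes, 31 had a mean of at least 1 FPKM over the 6 libraries and were tested, and 11 did not reach it. Of the 31, 11 (35.5%) fell and 3 (9.68%) rose at a limma adjusted p under 0.05, and 17 did not pass. Over all 11996 genes tested, 16.0% fell and 24.4% rose. Rrm2, Uhrf1, Lig1, Mcm3, Pola1, E2f1, Gins2, Mcm4, Rfc1, Pola2 and Rfc2 fell, and Gins4, Orc2 and Rpa1 rose. Of the 11 that fell, 7 had means of at least 1 FPKM in both groups, while Gins2, Pola1, Rrm2 and Uhrf1 reached the minimum only through the Nat10 flox/flox libraries. When the minimum mean was set at 5 FPKM, 7 replication genes were tested, of which 1 fell and 2 rose. The median log2 fold change was -0.25 over the 31 genes and 0.03 over all genes tested. Libraries were also rescaled to an equal sum of FPKM over genes not encoded in mitochondria, which replaced the deposited scaling by another kind. With that, 12 replication genes fell and 1 rose, beside 2480 lower and 2352 higher genes of 11980 tested. The deposited scaling gave 1924 lower and 2932 higher genes.

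Counted by overlap, the 3 Nat10-CKO values lay entirely below the 3 Nat10 flox/flox values in 11 of the 31 tested genes (35.5%) and entirely above in 4 (12.9%). Over all genes tested these shares were 24.4% and 31.5%. Among all 42 genes, tested or not, 18 had separate groups with Nat10-CKO lower, 4 had separate groups with Nat10-CKO higher, and 20 overlapped. The shares above cover tested genes only, and none was computed for genes under the minimum, so no excess can be read from these counts. The Nat10-CKO mean was the lower one in 33 of the 42 genes and the higher one in 9, again with no such share beside it. The log2 fold change was below 0 in 22 and above 0 in 9 of the 31 tested genes. Over all 11996 genes tested it was below 0 in 5684 and above 0 in 6312. All 8 functional classes held at least 1 gene that fell, a count with no share over all genes beside it. The class of E cyclins and activator E2F factors had 1 tested gene, and 5 to 7 classes held a fall when 1 library was left out. A drop of replication genes in whole hearts cannot tell fewer dividing cells from less RNA per cell.

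**Figure D1:**
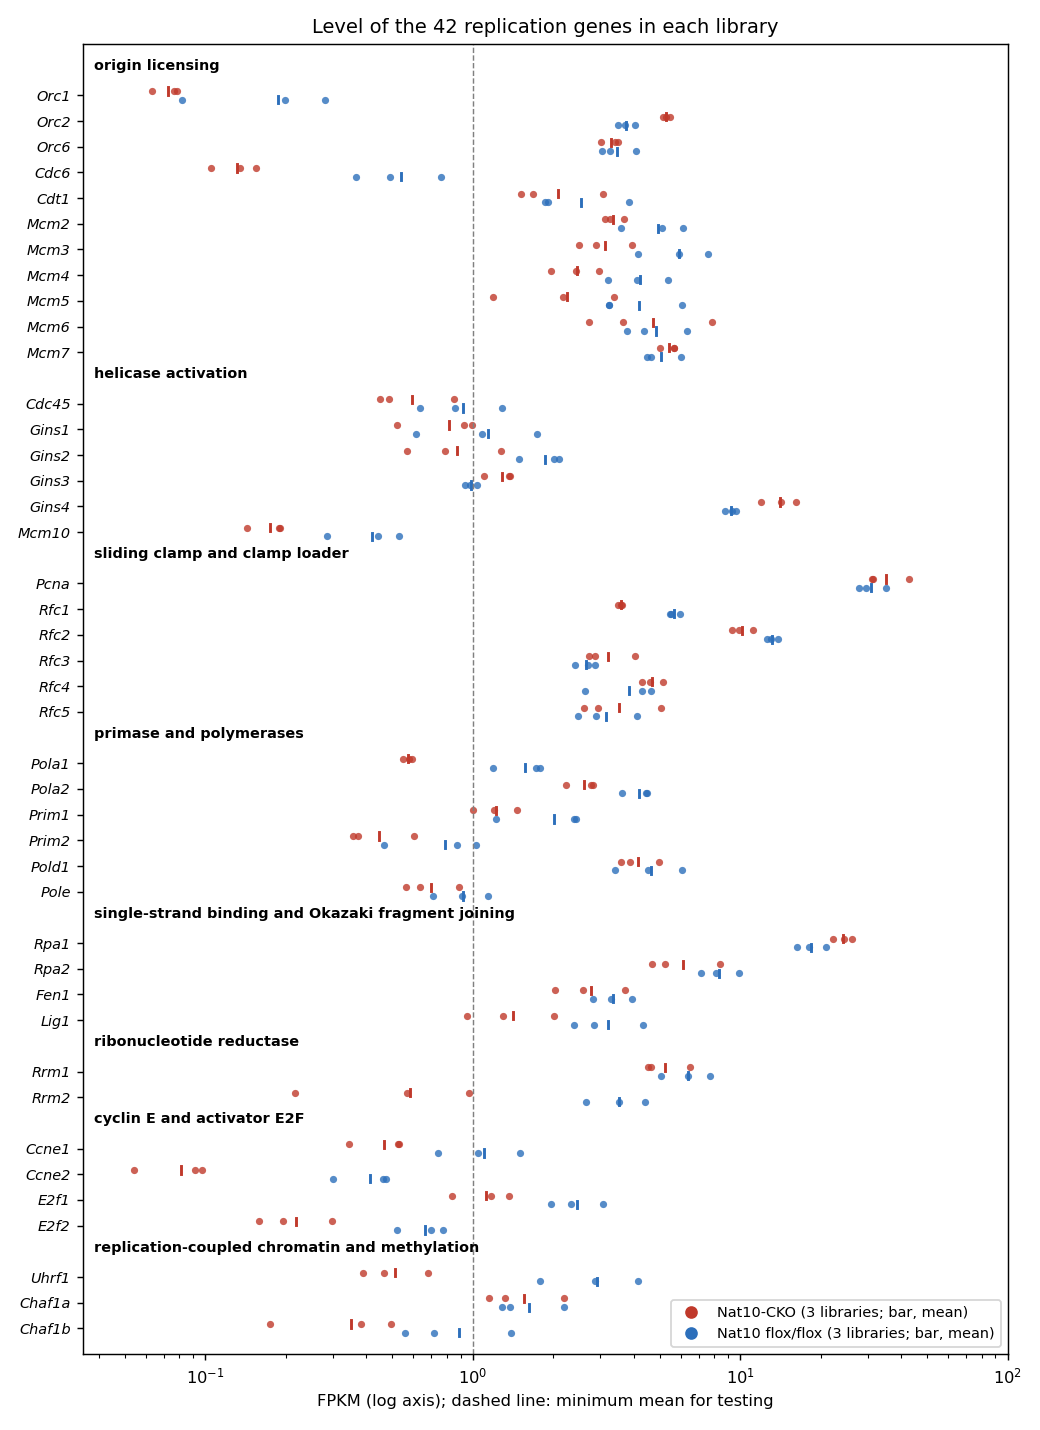
FPKM on a log axis (x) of all 42 replication genes (y, grouped by role); each point is 1 library, Nat10-CKO drawn above Nat10 flox/flox in each row, the short bar is the group mean and the dashed line marks a mean of 1 FPKM. Rrm2, Uhrf1, Cdc6, Ccne2 and E2f2 show groups far apart with Nat10-CKO lower, while Gins4, Orc2 and Rpa1 show Nat10-CKO higher.

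Markers of some cell types were also lower in Nat10-CKO, while those of others did not pass the test. All 8 endothelial markers fell, with summed levels of 219 to 230 FPKM in Nat10-CKO libraries and 367 to 433 FPKM in Nat10 flox/flox libraries. Over all tested genes 16.0% fell. In recovered reads with voom 6 of the 8 were lower. The limma calls of Pecam1 and Tek held in 2 and 1 of the 6 fits that left out a library, and those of the others in all 6. Of 6 pericyte and smooth muscle markers 4 fell, at 124 to 143 FPKM in Nat10-CKO against 231 to 267 FPKM in Nat10 flox/flox. The call of Notch3 held in 2 of the 6 fits, and the calls of the others that fell held in all 6. Of 8 cardiomyocyte markers 2 fell, with sums of 8588 to 14010 FPKM in Nat10-CKO and 12670 to 14650 FPKM in Nat10 flox/flox, so the libraries carried the labelled tissue. Erythroid markers summed to 3.17 to 4.02 FPKM in Nat10-CKO and 5.33 to 16.9 FPKM in Nat10 flox/flox, and Alas2, the 1 of 7 that could be tested, fell. The call of Alas2 held in 3 of the 6 fits. None of 7 fibroblast markers (369 to 686 FPKM in Nat10-CKO, 407 to 432 FPKM in Nat10 flox/flox) and none of 8 myeloid markers (338 to 406 FPKM in Nat10-CKO, 331 to 471 FPKM in Nat10 flox/flox) passed the test. Of 6 epicardial markers 2 were tested and 1 fell, with sums of 2.27 to 6.04 FPKM in Nat10-CKO and 3.01 to 4.30 FPKM in Nat10 flox/flox. The marker that fell, Wt1, kept its call in 1 of the 6 fits. T cell and thymus markers summed to 1.88 to 3.05 FPKM in Nat10-CKO. In Nat10 flox/flox replicates 1, 2 and 3 they summed to 3.09, 11.3 and 2.27 FPKM, so the high sum was that of replicate 2. Of the thymocyte genes, Rag2 and Dntt were at 0 in all 6 libraries. Rag1 had 2 reads in each of Nat10 flox/flox replicates 1 and 3. Ptcra had 6 reads in Nat10 flox/flox replicate 1 and 2 in Nat10-CKO replicate 1. B cell markers summed to 2.32 to 2.61 FPKM in Nat10-CKO and 2.72 to 4.47 FPKM in Nat10 flox/flox. The part of these cell types and of the mitochondrial share in the fall of replication genes was not tested.

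Libraries of the same group also differed in most of the replication genes. Nat10-CKO replicate 1 was the highest of its group in 28 of the 42 genes and replicate 3 the lowest in 29. Nat10 flox/flox replicate 3 was the highest of its group in 31 genes and replicate 1 the lowest in 31. The mean log2(FPKM + 1) over the 31 tested genes was 2.32, 2.06 and 1.95 in the Nat10-CKO libraries, against 2.22, 2.38 and 2.60 in the Nat10 flox/flox libraries. The highest Nat10-CKO library thus lay above the lowest Nat10 flox/flox library, and these are the pair that stood apart. Without both of them, Mcm2, Mcm5, Prim1, Rpa2 and Rrm1 also fell at the threshold, Gins2, Orc2 and Rpa1 no longer passed, and the median over the 31 genes was -0.53.

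**Figure D2:**
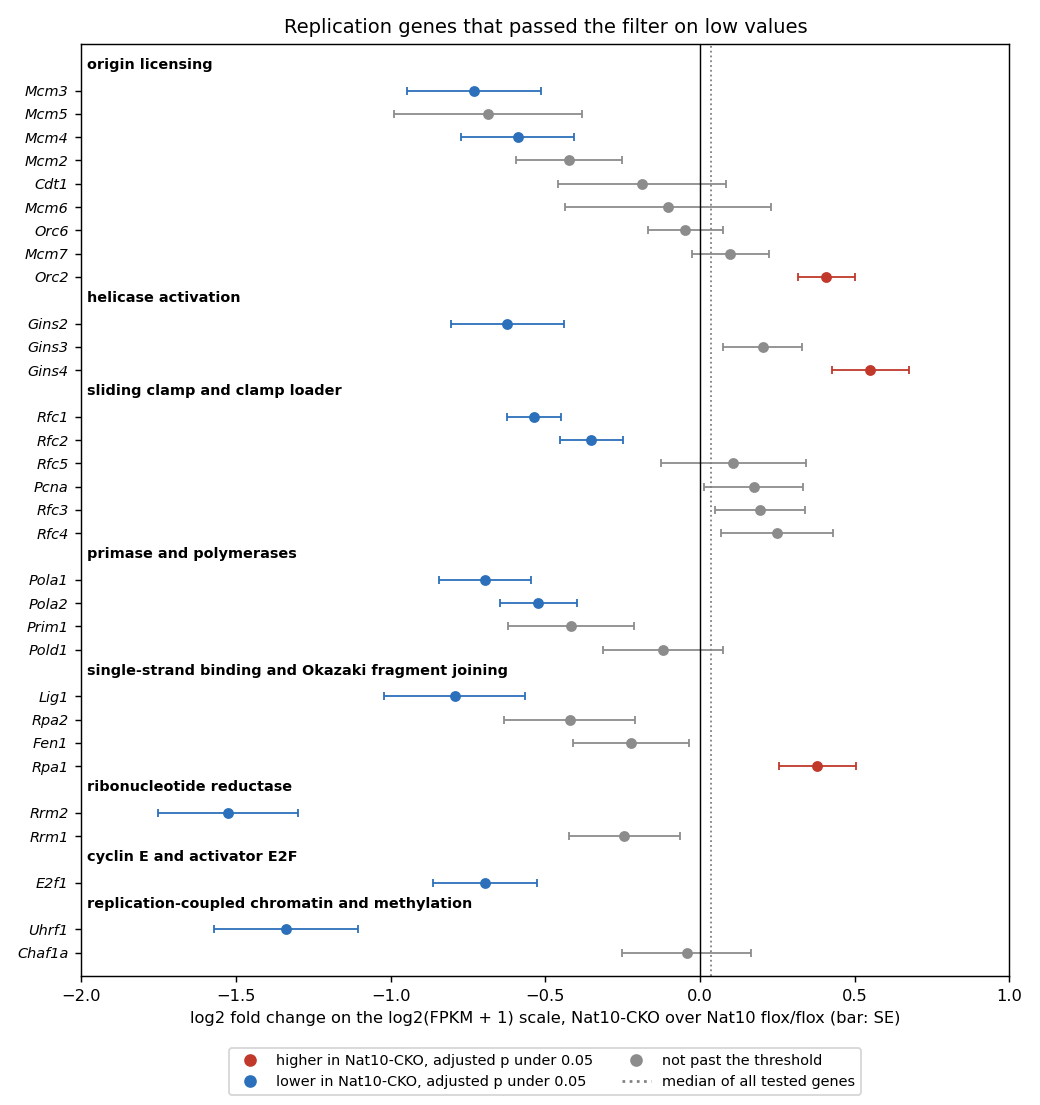
Log2 fold change on the log2(FPKM + 1) scale, Nat10-CKO over Nat10 flox/flox (x), of the 31 tested replication genes (y, by role); points are limma estimates from 3 libraries per group and bars are SE, the dotted line is the median of all tested genes (0.03). Rrm2 and Uhrf1 lie farthest to the left, and Gins4, Orc2 and Rpa1 are the genes past the threshold on the right.

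Sequences recognised by E2F factors lie upstream of many replication genes, and they are shown for genes that fell and for genes that did not. RefSeq promoter windows of 250 bases before to 50 bases after the gene start (GRCm38.p6) were matched for 34 of the 42 genes. The words TTTCCCGC, TTTGGCGC, TTTCGCGC and TTTGCCGC were searched on both strands, where matches of different words can overlap. A match was present in 14 of 34 windows (41.2%), against 704 of 27025 genes (2.60%) and 412 of 9097 tested genes (4.53%). Below are Cdc6 (chr11:98907987-98908046, plus strand), Uhrf1 (chr17:56304102-56304161, plus strand) and Pola1 (chrX:93632260-93632319, minus strand), which were lower in the limma or the read-based test, and Mcm5 (chr8:75109330-75109393, plus strand), Mcm6 (chr1:128359719-128359841, minus strand) and Gins3 (chr8:95633492-95633551, plus strand), which passed neither. Each stretch runs 5′ to 3′ on the strand of its gene and ends before the gene start, and capitals mark the E2F words on either strand.
Cdc6: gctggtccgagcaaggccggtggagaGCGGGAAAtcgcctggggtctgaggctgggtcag
Uhrf1: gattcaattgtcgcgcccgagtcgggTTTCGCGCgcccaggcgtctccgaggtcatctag
Pola1: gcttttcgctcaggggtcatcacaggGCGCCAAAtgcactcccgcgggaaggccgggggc
Mcm5: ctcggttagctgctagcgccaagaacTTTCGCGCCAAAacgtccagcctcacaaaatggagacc
Mcm6: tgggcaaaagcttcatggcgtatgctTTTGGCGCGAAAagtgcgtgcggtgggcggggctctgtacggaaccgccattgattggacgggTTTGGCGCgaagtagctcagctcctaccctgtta
Gins3: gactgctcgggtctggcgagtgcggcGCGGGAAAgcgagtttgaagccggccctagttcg
In Mcm5 and in the upstream match of Mcm6 the words of both strands overlap. Orc1, Mcm7 and Rfc3 also held a match before the gene start, and Mcm3, Lig1, E2f2, Cdt1 and Pold1 held theirs only after it. By the limma call, a match stood in 4 of 8 windows (50%) of genes that fell, 7 of 17 (41.2%) of genes that did not pass, 3 of 7 (42.9%) of genes under the minimum and 0 of 2 of genes that rose. Over all tested genes that fell it stood in 49 of 1422 windows (3.45%). Taking a fall in either the limma or the read-based test, it stood in 6 of 10 windows (60.0%), against 8 of 24 (33.3%) of the others. The median log2 fold change in recovered reads was -0.91 over the 14 genes with a match and -0.49 over the 20 without. The genes with a match spanned -2.44 for Uhrf1 to 0.38 for Gins3, and those without spanned -2.76 for Rrm2 to 0.50 for Orc2, so the ranges overlapped and the largest fall was in a gene without a match.

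Of the ribonucleotide reductase genes, Rrm2 had the largest fall among the 31 tested genes and Rrm1 did not pass. Rrm2 (gene ID 20135, GRCm39 chromosome 12, 24758253 to 24764145, plus strand), the ribonucleotide reductase subunit whose level follows S phase, had 0.971, 0.568 and 0.216 FPKM in Nat10-CKO hearts, against 2.66, 3.54 and 4.41 FPKM in Nat10 flox/flox hearts. All Nat10-CKO values lay below all Nat10 flox/flox values, with means of 0.585 ± 0.378 FPKM in Nat10-CKO and 3.54 ± 0.877 FPKM in Nat10 flox/flox (SD, n = 3 each), 6.05-fold lower in Nat10-CKO. The log2 fold change was -1.53 ± 0.23 SE, limma adjusted p = 0.00272, and the call held with each of the 6 libraries left out in turn. Rrm2 reached the minimum mean for testing only through the Nat10 flox/flox libraries. Rrm1, which encodes the large catalytic subunit and is more stable across the cell cycle, had 6.51, 4.63 and 4.53 FPKM in Nat10-CKO and 5.07, 6.36 and 7.71 FPKM in Nat10 flox/flox. Its groups overlapped and it did not pass (log2 fold change -0.25 ± 0.18 SE, limma adjusted p = 0.311). The Rrm1 to Rrm2 ratio was 6.71, 8.14 and 21.0 in the Nat10-CKO libraries, against 1.91, 1.80 and 1.75 in the Nat10 flox/flox libraries (exact two-sided permutation test, p = 0.1, the smallest that 3 against 3 allows; 0.117 after Benjamini-Hochberg adjustment over the 14 ratios computed).

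Outside the 42 genes, Rrm2b encodes the reductase subunit that p53 induces in resting cells. Its level did not pass the test, and the Rrm2b to Rrm2 ratio was 3.25, 8.61 and 27.9 in Nat10-CKO libraries and 2.07, 1.61 and 1.41 in Nat10 flox/flox libraries. Of 13 other genes of deoxynucleotide supply, 11 were tested, 2 rose (18.2%) and 2 fell (18.2%), against 24.4% and 16.0% of all tested genes. Dut, whose dUTPase keeps uracil out of DNA, averaged 1.63 ± 0.480 FPKM in Nat10-CKO and 5.72 ± 0.644 FPKM in Nat10 flox/flox (log2 fold change -1.36 ± 0.16 SE, limma adjusted p = 0.00109). Tk1, the S-phase thymidine kinase, averaged 0.777 ± 0.268 FPKM in Nat10-CKO and 2.98 ± 0.788 FPKM in Nat10 flox/flox (log2 fold change -1.16 ± 0.19 SE, limma adjusted p = 0.00407). Tk1 reached the minimum of 1 FPKM only through the Nat10 flox/flox libraries. Those that rose were Shmt1, a serine hydroxymethyltransferase of folate metabolism (7.89 ± 3.33 FPKM in Nat10-CKO and 3.43 ± 0.301 FPKM in Nat10 flox/flox, log2 fold change 0.94 ± 0.25 SE, limma adjusted p = 0.0236), and Tk2, the mitochondrial thymidine kinase (6.43 ± 0.611 FPKM in Nat10-CKO and 4.96 ± 0.322 FPKM in Nat10 flox/flox, log2 fold change 0.32 ± 0.10 SE, limma adjusted p = 0.0481). The call of Tk2 held in 1 of the 6 fits that left out a library, and that of Shmt1 in 2.

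Of the genes that act on chromatin behind the fork, Uhrf1 fell and Chaf1a did not pass. Uhrf1 (gene ID 18140, GRCm39 chromosome 17, 56610337 to 56630486, plus strand), whose product brings the maintenance methyltransferase to newly copied DNA, had 0.678, 0.465 and 0.388 FPKM in Nat10-CKO hearts, against 1.79, 2.85 and 4.13 FPKM in Nat10 flox/flox hearts. Every Nat10-CKO library was below every Nat10 flox/flox library, 5.73-fold lower in the mean. The log2 fold change was -1.34 ± 0.23 SE, limma adjusted p = 0.00505, and the call held with each library left out. Uhrf1 reached the minimum mean for testing only through the Nat10 flox/flox libraries. Chaf1a, the large subunit of the CAF-1 histone chaperone, had 2.20, 1.31 and 1.15 FPKM in Nat10-CKO and 1.38, 1.29 and 2.19 FPKM in Nat10 flox/flox. The groups overlapped over nearly their whole range and the gene did not pass (log2 fold change -0.04 ± 0.21 SE, limma adjusted p = 0.886). It shares 982 bases with Ubxn6 on the other strand, and since no source used here gives the strand setting of the counting, its reads are uncertain. Chaf1b, the middle subunit, was under the minimum, with 37, 27 and 12 reads in Nat10-CKO and 46, 46 and 100 reads in Nat10 flox/flox. Of 10 other genes of histone supply and methylation, 9 were tested, 1 rose and 1 fell (11.1% each). Over all tested genes 24.4% rose and 16.0% fell, and 9 genes are too few to read a difference from these shares. Asf1a, a histone chaperone, averaged 2.36 ± 0.360 FPKM in Nat10-CKO and 1.19 ± 0.110 FPKM in Nat10 flox/flox (log2 fold change 0.62 ± 0.13 SE, limma adjusted p = 0.00981), and Slbp, which binds the stem-loop of histone messages, averaged 5.17 ± 0.486 FPKM in Nat10-CKO and 8.16 ± 0.122 FPKM in Nat10 flox/flox (log2 fold change -0.57 ± 0.09 SE, limma adjusted p = 0.00410).

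Polymerase alpha fell in both of its named subunits. Pola1 (gene ID 18968, GRCm39 chromosome X, 92348372 to 92675993, minus strand), the catalytic subunit that extends the RNA primer, had 0.580, 0.548 and 0.594 FPKM in Nat10-CKO hearts, against 1.19, 1.72 and 1.79 FPKM in Nat10 flox/flox hearts. The Nat10-CKO values lay close together and below every Nat10 flox/flox value (2.73-fold lower in the mean, log2 fold change -0.70 ± 0.15 SE, limma adjusted p = 0.0109). Pola2 (gene ID 18969, GRCm39 chromosome 19, 5990571 to 6014266, minus strand), the accessory subunit, had 2.77, 2.81 and 2.23 FPKM in Nat10-CKO and 3.60, 4.48 and 4.45 FPKM in Nat10 flox/flox, again with no overlap (log2 fold change -0.52 ± 0.12 SE, limma adjusted p = 0.0157). Pola1, which reached the minimum only through the Nat10 flox/flox libraries, kept its call in all 6 fits that left out a library. Pola2 kept it in 4, and its adjusted p became 0.0635 when Nat10 flox/flox replicate 2 was left out and 0.0609 when replicate 3 was.

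The other enzymes of this class did not pass. Prim1, the catalytic primase subunit, had 1.47, 1.20 and 0.998 FPKM in Nat10-CKO and 1.22, 2.39 and 2.44 FPKM in Nat10 flox/flox (log2 fold change -0.42 ± 0.20 SE, limma adjusted p = 0.147). Pold1, the catalytic subunit of the lagging-strand polymerase delta, had 4.97, 3.59 and 3.86 FPKM in Nat10-CKO and 3.40, 4.52 and 6.03 FPKM in Nat10 flox/flox (log2 fold change -0.12 ± 0.19 SE, limma adjusted p = 0.650). In both genes the groups overlapped. Prim2, the large primase subunit, and Pole, the catalytic subunit of the leading-strand polymerase epsilon, were under the minimum. Their means were 0.444 ± 0.137 and 0.696 ± 0.173 FPKM in Nat10-CKO and 0.790 ± 0.293 and 0.922 ± 0.218 FPKM in Nat10 flox/flox. The Pold1 level was 5.59, 6.40 and 6.07 times that of Pole in Nat10-CKO libraries, against 4.79, 4.95 and 5.27 times in Nat10 flox/flox libraries. The ratio of Pold2, a further polymerase delta subunit outside the 42 genes, to Pold1 overlapped, at 2.93, 4.42 and 4.35 in Nat10-CKO and 3.21, 2.90 and 2.67 in Nat10 flox/flox (exact two-sided permutation test, p = 0.2).

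In the clamp and its loader, Rfc1 and Rfc2 fell and the other 4 genes did not pass. Pcna, the sliding clamp and the most abundant of the 42 messages, had 42.7, 31.3 and 31.2 FPKM in Nat10-CKO hearts, against 29.6, 27.8 and 35.0 FPKM in Nat10 flox/flox hearts. The groups overlapped and it did not pass (log2 fold change 0.17 ± 0.16 SE, limma adjusted p = 0.422). A processed copy, Pcna-ps2, is a row of its own at 0.0956 FPKM in Nat10-CKO and 0.123 FPKM in Nat10 flox/flox, so reads shared between the copies could be split. Rfc1 (gene ID 19687, GRCm39 chromosome 5, 65419195 to 65495960, minus strand), the large subunit of the replicative clamp loader, had 3.59, 3.50 and 3.62 FPKM in Nat10-CKO and 5.44, 5.93 and 5.51 FPKM in Nat10 flox/flox. Its replicates were tight and its groups far apart, and it fell in the full fit and in all 6 fits that left out a library (log2 fold change -0.54 ± 0.09 SE, limma adjusted p = 0.00371).

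The small subunits RFC2 to RFC5 also serve the other clamp loaders of the cell. Rfc2 (gene ID 19718, GRCm39 chromosome 5, 134611544 to 134627182, plus strand) had 11.1, 9.92 and 9.30 FPKM in Nat10-CKO and 12.6, 13.1 and 13.8 FPKM in Nat10 flox/flox. It fell (log2 fold change -0.35 ± 0.10 SE, limma adjusted p = 0.0322), but the call held in only 1 of the 6 fits that left out a library, the one without Nat10-CKO replicate 1. Rfc3, Rfc4 and Rfc5 had means of 3.21 ± 0.727, 4.67 ± 0.429 and 3.53 ± 1.33 FPKM in Nat10-CKO and 2.65 ± 0.223, 3.85 ± 1.07 and 3.15 ± 0.846 FPKM in Nat10 flox/flox. Their groups overlapped, their log2 fold changes were 0.19, 0.25 and 0.11, and none passed (limma adjusted p = 0.320, 0.306 and 0.737). Rfc4 shares 185 bases with Eif4a2 on the other strand, which averaged 25.5 FPKM in Nat10-CKO and 70.7 FPKM in Nat10 flox/flox. The Rfc2 to Rfc3 ratio was 2.75, 3.46 and 3.41 in Nat10-CKO libraries, against 4.41, 4.86 and 5.72 in Nat10 flox/flox libraries, without overlap. An exact two-sided permutation test gave p = 0.1, the smallest possible, and 0.117 adjusted over 14 ratios.

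**Figure D3:**
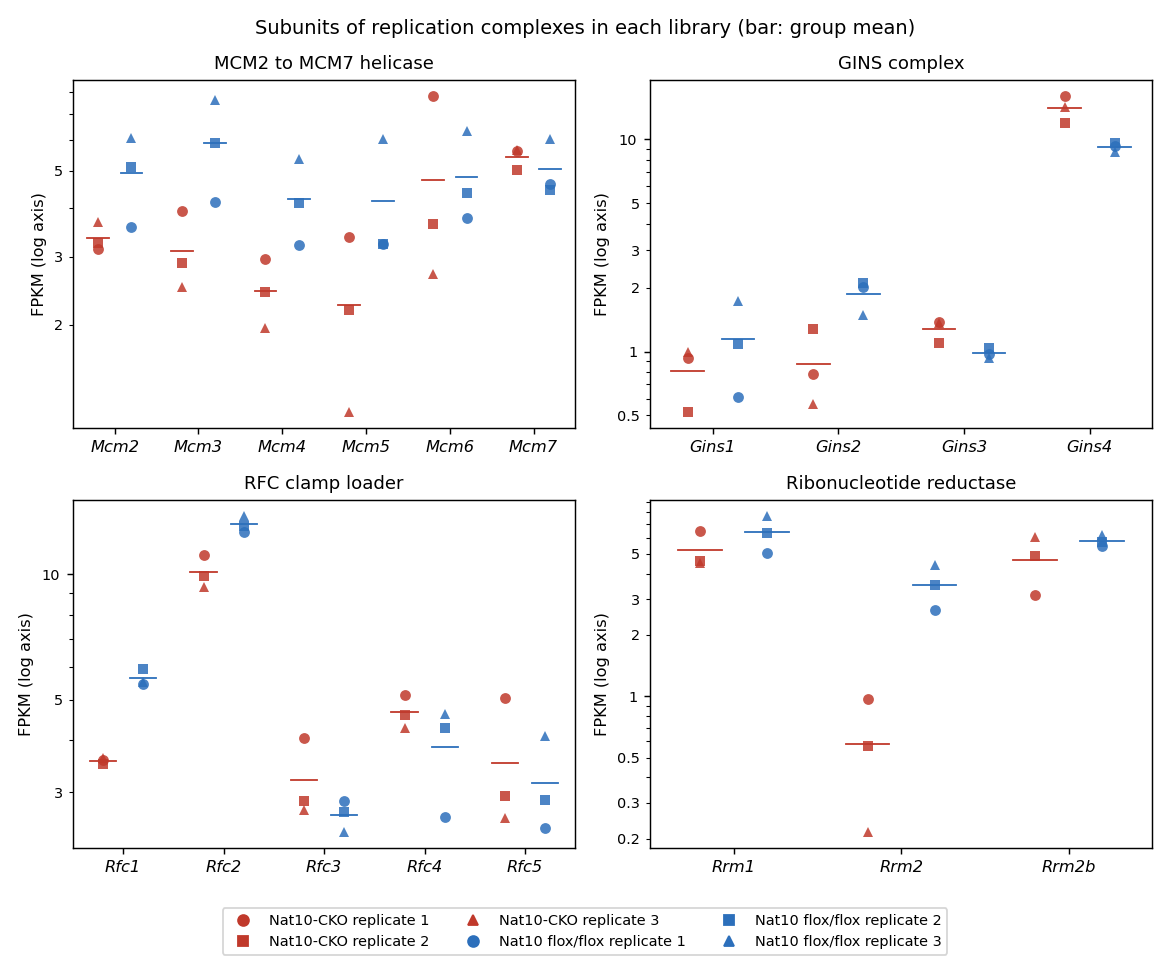
FPKM on a log axis (y) of the subunits of 4 assemblies (x: MCM2 to MCM7 ring, GINS, RFC, ribonucleotide reductase with Rrm2b); points are libraries, with marker shape for the replicate number and Nat10-CKO left of Nat10 flox/flox, and bars are group means. Rrm2, Rfc1 and Gins2 are lower in Nat10-CKO and Gins4 is higher, and Nat10-CKO replicate 1 is the highest point of its group for Mcm6 (7.82 FPKM).

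The MCM2 to MCM7 ring is built of 6 subunits in equal number, and the messages of 2 of them, Mcm3 and Mcm4, fell. Mcm3 (gene ID 17215, GRCm39 chromosome 1, 20873188 to 20890536, minus strand) had 3.94, 2.88 and 2.50 FPKM in Nat10-CKO hearts, against 4.16, 5.91 and 7.60 FPKM in Nat10 flox/flox hearts. Mcm4 (gene ID 17217, GRCm39 chromosome 16, 15441761 to 15455264, minus strand) had 2.96, 2.43 and 1.96 FPKM in Nat10-CKO and 3.21, 4.12 and 5.35 FPKM in Nat10 flox/flox. Both fell without overlap, Mcm3 with log2 fold change -0.73 ± 0.22 SE, limma adjusted p = 0.0354 and Mcm4 with log2 fold change -0.59 ± 0.18 SE, limma adjusted p = 0.0415. Each call held in 2 of the 6 fits that left out a library and was lost without Nat10 flox/flox replicate 2 or 3 or Nat10-CKO replicate 2 or 3. In recovered reads with voom their adjusted p was 0.0533 and 0.0615.

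The other subunits of the ring did not pass. Mcm2 had 3.13, 3.25 and 3.68 FPKM in Nat10-CKO and 3.57, 5.11 and 6.08 FPKM in Nat10 flox/flox (log2 fold change -0.42 ± 0.17 SE, limma adjusted p = 0.0914), and Mcm5 had 3.36, 2.18 and 1.19 FPKM in Nat10-CKO and 3.23, 3.24 and 6.04 FPKM in Nat10 flox/flox (log2 fold change -0.68 ± 0.30 SE, limma adjusted p = 0.116). Mcm6 had 7.82, 3.65 and 2.71 FPKM in Nat10-CKO and 3.78, 4.38 and 6.34 FPKM in Nat10 flox/flox (log2 fold change -0.10 ± 0.33 SE, limma adjusted p = 0.825). Nat10-CKO replicate 1 was the highest of all 6 libraries and Nat10-CKO replicate 3 the lowest. Mcm7, which hosts the microRNAs Mir25, Mir93 and Mir106b in its introns, had 5.63, 5.01 and 5.66 FPKM in Nat10-CKO and 4.63, 4.47 and 6.02 FPKM in Nat10 flox/flox (log2 fold change 0.10 ± 0.13 SE, limma adjusted p = 0.557). Within a library, the highest of the 6 subunits was 2.65, 2.30 and 4.74 times the lowest in Nat10-CKO hearts, against 1.44, 1.83 and 1.42 times in Nat10 flox/flox hearts. An exact two-sided permutation test gave p = 0.1, the smallest possible, and 0.117 adjusted over 14 ratios.

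Of the 3 tested factors that load the ring, Orc2 rose and Orc6 and Cdt1 did not pass. Orc2 (gene ID 18393, GRCm39 chromosome 1, 58501930 to 58544268, minus strand), a core subunit of the origin recognition complex, had 5.27, 5.47 and 5.16 FPKM in Nat10-CKO hearts, against 3.50, 3.71 and 4.05 FPKM in Nat10 flox/flox hearts. All Nat10-CKO values were higher (1.41-fold, log2 fold change 0.41 ± 0.09 SE, limma adjusted p = 0.0132). The call held in 4 of 6 fits, and the adjusted p became 0.0543 when Nat10 flox/flox replicate 1 was left out and 0.0540 when replicate 2 was. Orc6, the smallest subunit, had 3.40, 3.48 and 3.02 FPKM in Nat10-CKO and 3.04, 3.27 and 4.08 FPKM in Nat10 flox/flox, with overlap (log2 fold change -0.05 ± 0.12 SE, limma adjusted p = 0.772). Cdt1, the loader that is destroyed once S phase starts, had 3.06, 1.68 and 1.52 FPKM in Nat10-CKO and 1.86, 1.92 and 3.84 FPKM in Nat10 flox/flox, also with overlap (log2 fold change -0.19 ± 0.27 SE, limma adjusted p = 0.609). Orc1 and Cdc6 were under the minimum and are given with the low genes.

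Among 41 other origin and fork genes, 26 were tested, 6 rose (23.1%) and 4 fell (15.4%), shares close to the 24.4% and 16.0% over all tested genes. Gmnn, whose product geminin holds CDT1 inactive, averaged 3.95 ± 0.551 FPKM in Nat10-CKO and 9.11 ± 1.33 FPKM in Nat10 flox/flox (log2 fold change -1.03 ± 0.14 SE, limma adjusted p = 0.00172). Orc4, a further origin recognition subunit, averaged 4.84 ± 0.673 FPKM in Nat10-CKO and 1.88 ± 0.152 FPKM in Nat10 flox/flox (log2 fold change 1.01 ± 0.12 SE, limma adjusted p = 0.00118). Rnaseh2c, a subunit of the enzyme that removes ribonucleotides from DNA, averaged 30.7 ± 1.53 FPKM in Nat10-CKO and 16.7 ± 1.29 FPKM in Nat10 flox/flox (log2 fold change 0.84 ± 0.10 SE, limma adjusted p = 0.00130). Rpa3, the small RPA subunit, fell. Mcm8, Pole3, Ssrp1 and Supt16 also rose and Pclaf and Rfwd3 also fell. The call of Mcm8 was lost in each of the 6 fits that left out a library, those of Pole3 and Rfwd3 held in 2 and that of Supt16 in 4. Pclaf reached the minimum only through the Nat10 flox/flox libraries.

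GINS, which joins the ring at the start of S phase, contains 1 product of each of its 4 genes. Gins4 (gene ID 109145, GRCm39 chromosome 8, 23716626 to 23727684, minus strand) had 16.1, 12.0 and 14.2 FPKM in Nat10-CKO hearts, against 9.29, 9.66 and 8.77 FPKM in Nat10 flox/flox hearts. It rose without overlap (1.52-fold, log2 fold change 0.55 ± 0.12 SE, limma adjusted p = 0.0132) and kept the call in 5 of 6 fits, its adjusted p becoming 0.0521 when Nat10 flox/flox replicate 3 was left out. Rescaled to an equal FPKM sum over genes not encoded in mitochondria, its log2 fold change was 0.45 (limma adjusted p = 0.0510). Gins2 (gene ID 272551, GRCm39 chromosome 8, 121308005 to 121315814, minus strand) had 0.784, 1.28 and 0.567 FPKM in Nat10-CKO and 2.01, 2.10 and 1.49 FPKM in Nat10 flox/flox. It fell (log2 fold change -0.62 ± 0.18 SE, limma adjusted p = 0.0337), and the call held in 2 of 6 fits and was lost without replicate 1 or 2 of Nat10 flox/flox or replicate 1 or 3 of Nat10-CKO. It shares 118 bases with Gse1 on the other strand, and rests on 20 to 46 reads per Nat10-CKO library and 55 to 85 per Nat10 flox/flox library. Gins2 reached the minimum mean for testing only through the Nat10 flox/flox libraries.

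Gins3 had 1.38, 1.10 and 1.37 FPKM in Nat10-CKO and 0.978, 1.03 and 0.933 FPKM in Nat10 flox/flox. Its groups did not overlap, with Nat10-CKO above, but it did not pass (log2 fold change 0.20 ± 0.13 SE, limma adjusted p = 0.245). Gins1, Cdc45 and Mcm10 were under the minimum, with means of 0.814 ± 0.256, 0.594 ± 0.221 and 0.174 ± 0.0272 FPKM in Nat10-CKO and 1.14 ± 0.564, 0.923 ± 0.330 and 0.420 ± 0.123 FPKM in Nat10 flox/flox. Gins4 was far above the other GINS messages in every library. The Gins4 to Gins1 ratio was 17.3, 23.0 and 14.3 in Nat10-CKO libraries and 15.2, 8.92 and 5.05 in Nat10 flox/flox libraries, with overlap (exact two-sided permutation test, p = 0.2; 0.2 adjusted over 14 ratios). The Gins4 to Gins2 ratio was 20.5, 9.40 and 25.0 in Nat10-CKO libraries, against 4.62, 4.60 and 5.88 in Nat10 flox/flox libraries. This ratio had to separate, since every Nat10-CKO value of Gins4 lay above, and of Gins2 below, every Nat10 flox/flox value. Its exact two-sided permutation test (p = 0.1, adjusted p = 0.117 over 14 ratios) therefore adds nothing to the calls of the single genes.

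RPA, the trimer that coats unpaired strands in replication and repair, showed opposite changes in its subunits. Rpa1 (gene ID 68275, GRCm39 chromosome 11, 75191085 to 75239478, minus strand), the large DNA-binding subunit, had 26.1, 22.2 and 24.4 FPKM in Nat10-CKO hearts, against 16.4, 18.0 and 20.9 FPKM in Nat10 flox/flox hearts. It rose narrowly (1.31-fold, log2 fold change 0.38 ± 0.13 SE, limma adjusted p = 0.0497), kept the call in 1 of 6 fits that left out a library, and lost it with total-read scaling (adjusted p 0.0636) and in recovered reads (0.0697). Rpa2 had 8.39, 5.24 and 4.69 FPKM in Nat10-CKO and 7.11, 8.08 and 9.85 FPKM in Nat10 flox/flox, with overlap, and it missed the threshold (log2 fold change -0.42 ± 0.21 SE, limma adjusted p = 0.156). Rpa3, the small subunit, which is outside the 42 genes, had 2.76, 4.74 and 3.51 FPKM in Nat10-CKO and 8.35, 7.82 and 7.54 FPKM in Nat10 flox/flox and fell (log2 fold change -0.95 ± 0.16 SE, limma adjusted p = 0.00448). The Rpa1 to Rpa2 ratio was 3.12, 4.23 and 5.20 in Nat10-CKO libraries, against 2.30, 2.23 and 2.13 in Nat10 flox/flox libraries. An exact two-sided permutation test gave p = 0.1, the smallest possible, and 0.117 adjusted over 14 ratios.

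Okazaki fragments are trimmed by FEN1 and sealed by DNA ligase 1. Lig1 (gene ID 16881, GRCm39 chromosome 7, 13011101 to 13045351, plus strand) had 2.00, 1.30 and 0.950 FPKM in Nat10-CKO hearts, against 2.40, 2.85 and 4.35 FPKM in Nat10 flox/flox hearts. The groups did not overlap, and the gene fell 2.26-fold in the mean (log2 fold change -0.79 ± 0.23 SE, limma adjusted p = 0.0315). The call held in 2 of 6 fits and was lost without Nat10 flox/flox replicate 2 or 3 or Nat10-CKO replicate 2 or 3. In recovered reads its log2 fold change was -1.18 at a voom adjusted p of 0.0393. Lig1 shares 1547 bases with Zswim9 on the other strand, which averaged 3.11 FPKM in Nat10-CKO and 2.85 FPKM in Nat10 flox/flox. Fen1 had 3.70, 2.58 and 2.02 FPKM in Nat10-CKO and 2.82, 3.29 and 3.95 FPKM in Nat10 flox/flox, with overlap, and it missed the threshold (log2 fold change -0.22 ± 0.19 SE, limma adjusted p = 0.372).

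The factors that open S phase were the class in which all 4 genes separated by group, with Nat10-CKO lower. Only 1 of them was tested, and 24.4% of all tested genes separated in this direction. For the 3 under the minimum no share over all genes was computed. E2f1 (gene ID 13555, GRCm39 chromosome 2, 154401320 to 154411812, minus strand), an activator of replication genes, had 1.17, 1.37 and 0.836 FPKM in Nat10-CKO hearts, against 3.07, 1.96 and 2.32 FPKM in Nat10 flox/flox hearts. It fell 2.18-fold in the mean (log2 fold change -0.69 ± 0.17 SE, limma adjusted p = 0.0175) and kept the call in 5 of 6 fits, its adjusted p becoming 0.0508 when Nat10 flox/flox replicate 3 was left out. E2f2, Ccne1 and Ccne2 were under the minimum, and each had all Nat10-CKO values below all Nat10 flox/flox values. Of 17 other E2F, RB and DREAM regulators, 11 were tested, 2 rose (18.2%) and 1 fell (9.09%), against 24.4% and 16.0% of all tested genes. With 11 genes no difference from these shares can be read. Lin37, a subunit of the DREAM complex that silences cell cycle genes in resting cells, averaged 14.7 ± 1.81 FPKM in Nat10-CKO and 5.83 ± 0.544 FPKM in Nat10 flox/flox (log2 fold change 1.20 ± 0.12 SE, limma adjusted p = 0.000716). E2f4, a factor of the same repressor, averaged 21.7 ± 0.223 FPKM in Nat10-CKO and 17.8 ± 0.20 FPKM in Nat10 flox/flox (log2 fold change 0.27 ± 0.09 SE, limma adjusted p = 0.0446). Its call was lost in each of the 6 fits that left out a library. Rbl2, the pocket protein p130, averaged 8.15 ± 0.783 FPKM in Nat10-CKO and 10.6 ± 0.773 FPKM in Nat10 flox/flox (log2 fold change -0.34 ± 0.11 SE, limma adjusted p = 0.0404), a call that held in 1 of 6.

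**Figure D4:**
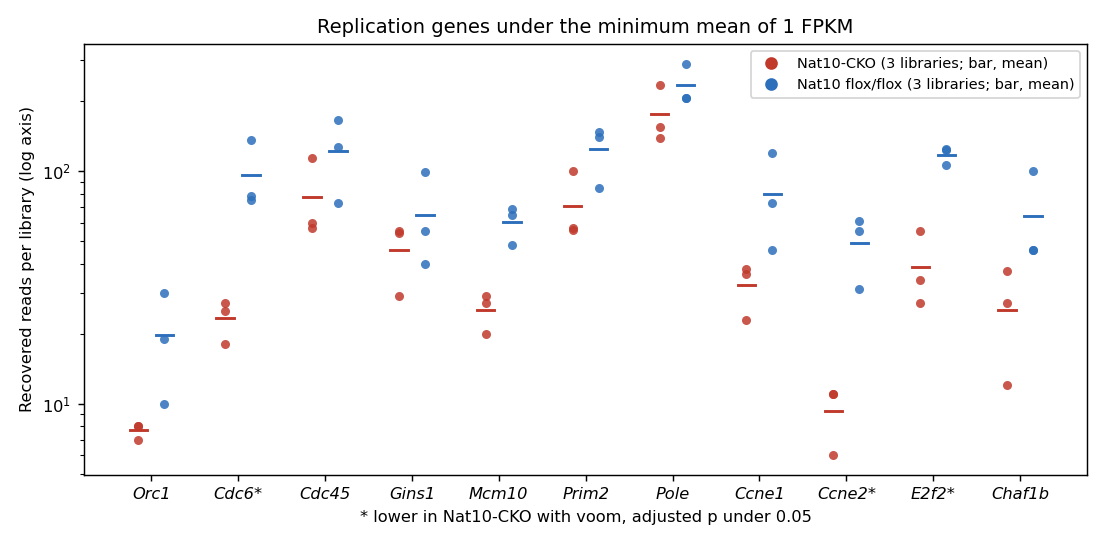
Recovered reads per library on a log axis (y) of the 11 replication genes under the minimum mean of 1 FPKM (x); points are libraries, Nat10-CKO left of Nat10 flox/flox, bars are group means, and an asterisk marks voom adjusted p under 0.05. Cdc6, Ccne2 and E2f2 are marked, all with Nat10-CKO lower.

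The 11 low genes were read in whole reads recovered from the FPKM steps, with voom as the test. All 11 had the lower mean in Nat10-CKO, and 3 of them passed. Over all 21730 genes in this test 11.1% were lower, and the median log2 fold change was -0.11. No share was computed for low genes alone. With 1 library left out, 1 to 4 of the low genes were lower, the 1 without Nat10-CKO replicate 2. Cdc6 (gene ID 23834, GRCm39 chromosome 11, 98798627 to 98814768, plus strand), which loads the ring together with CDT1, had 25, 27 and 18 reads in Nat10-CKO libraries, against 75, 78 and 136 reads in Nat10 flox/flox libraries (log2 fold change -1.95 ± 0.44 SE, voom adjusted p = 0.0161). Ccne2 (gene ID 12448, GRCm39 chromosome 4, 11190489 to 11204779, plus strand), an E cyclin that drives CDK2, had 11, 11 and 6 reads in Nat10-CKO and 61, 31 and 55 reads in Nat10 flox/flox (log2 fold change -2.31 ± 0.49 SE, voom adjusted p = 0.0125). E2f2 (gene ID 242705, GRCm39 chromosome 4, 135899585 to 135923368, plus strand), a further activator E2F, had 55, 34 and 27 reads in Nat10-CKO and 106, 123 and 124 reads in Nat10 flox/flox (log2 fold change -1.60 ± 0.35 SE, voom adjusted p = 0.0144). In all of these the groups were separate. Ccne2 shares 5622 bases with Ints8 on the other strand, which averaged 5.54 FPKM in Nat10-CKO and 2.76 FPKM in Nat10 flox/flox, the opposite direction.

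The other low genes did not pass with voom. Mcm10, which helps to start the helicase, had 29, 27 and 20 reads in Nat10-CKO and 48, 69 and 65 reads in Nat10 flox/flox (log2 fold change -1.19 ± 0.40 SE, voom adjusted p = 0.0662), and Ccne1, the other E cyclin, had 38, 36 and 23 reads in Nat10-CKO and 120, 46 and 73 reads in Nat10 flox/flox (log2 fold change -1.21 ± 0.40 SE, voom adjusted p = 0.0652). Both had separate groups, as had Orc1 and Chaf1b. Orc1, the subunit that comes and goes with the cell cycle, had 7, 8 and 8 reads in Nat10-CKO and 10, 19 and 30 reads in Nat10 flox/flox (log2 fold change -1.11 ± 0.66 SE, voom adjusted p = 0.266). Cdc45, Gins1, Prim2 and Pole overlapped between groups, with voom adjusted p of 0.269, 0.596, 0.223 and 0.349. Cdc45 shares 1886 bases with Ufd1 on the other strand, which averaged 14.9 FPKM in Nat10-CKO and 18.1 FPKM in Nat10 flox/flox. Over all 42 genes, voom called 10 lower (23.8%) and 2 higher (4.76%), against 11.1% lower and 13.4% higher of 21730 genes. The 7 that fell in both tests were Rrm2, Uhrf1, Pola1, Pola2, Rfc1, Lig1 and E2f1, and Gins4 and Orc2 rose in both.

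Kinases, inhibitors and ligases that gate S phase were a further list of 21 genes, of which 13 were tested, 2 rose (15.4%) and 6 fell (46.2%), against 24.4% and 16.0% of all tested genes. Cdkn1a, which encodes the CDK inhibitor p21, had 214, 152 and 153 FPKM in Nat10-CKO hearts, against 14.4, 14.4 and 13.3 FPKM in Nat10 flox/flox hearts (log2 fold change 3.52 ± 0.16 SE, limma adjusted p = 0.000110). Its product binds both cyclin E with CDK2 and the PCNA clamp. Fzr1, an activator of the ubiquitin ligase that degrades cyclins in resting cells, averaged 27.1 ± 1.51 FPKM in Nat10-CKO and 19.3 ± 0.585 FPKM in Nat10 flox/flox (log2 fold change 0.46 ± 0.09 SE, limma adjusted p = 0.00903). Ccna2, the cyclin of ongoing S phase, averaged 0.340 ± 0.0927 FPKM in Nat10-CKO and 2.66 ± 0.808 FPKM in Nat10 flox/flox (log2 fold change -1.43 ± 0.20 SE, limma adjusted p = 0.00200). Fbxw7, which marks cyclin E for destruction, averaged 5.15 ± 0.587 FPKM in Nat10-CKO and 8.48 ± 0.610 FPKM in Nat10 flox/flox (log2 fold change -0.63 ± 0.11 SE, limma adjusted p = 0.00496). Cdk2, Cdkn1b, Cdkn2c and Cks2 fell as well, Cdk2 with a call that held in 1 of the 6 fits that left out a library and Cks2 in 4. The general proliferation genes Mki67 (0.541 ± 0.226 FPKM in Nat10-CKO, 2.54 ± 0.417 FPKM in Nat10 flox/flox, log2 fold change -1.21 ± 0.17 SE, limma adjusted p = 0.00206) and Top2a (0.932, 0.445 and 0.388 FPKM in Nat10-CKO, 2.95, 4.79 and 5.04 FPKM in Nat10 flox/flox, log2 fold change -1.72 ± 0.22 SE, limma adjusted p = 0.00142) fell too. Ccna2, Mki67 and Top2a, like Tk1 and Pclaf, reached the minimum only through the Nat10 flox/flox libraries, so 5 of the 16 falls outside the 42 genes are of this kind. Over all 104 further replication and S-phase genes, 72 were tested, 13 rose (18.1%) and 16 fell (22.2%), against 24.4% and 16.0% of all tested genes, with a median log2 fold change of -0.08.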

How the data were processed

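Directional libraries of poly-A RNA were sequenced in read pairs, per the labels' protocols. HISAT2 2.2.1 aligned them to GRCm39 and featureCounts 2.0.6 counted them, per the series' design text. CASAVA and DESeq2 1.42.0 are further names in the submitters' processing notes. The authors deposited FPKM per library, with gene coordinates and lengths. The strand setting of the counting and the definition of gene length are not given in the sources used here. Multiplied by gene length, 100% of values were whole multiples of what 1 read is worth (tolerance 0.01 read), which gave the reads per gene. The deposited scaling equalled median-of-ratios size factors. For a gene of 1 kb, 1 read equalled 0.0246 to 0.0316 FPKM, so low genes rest on few reads.

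The test was limma 3.58.1 under R 4.3.3 (trended eBayes, two-sided) on log2(FPKM + 1), which understates the change of low genes, over genes with a mean of at least 1 FPKM, and Benjamini-Hochberg adjusted p under 0.05 counted as a call. The same p-values, fitted over all tested genes, are used for the replication genes. Recovered reads were tested with voom in genes with at least 10 reads in all. The script was tested on simulated data. Ratios were compared with an exact permutation test (scipy 1.17.1). With 3 against 3 libraries its p cannot be under 0.1, so no ratio could pass 0.05. Promoter windows came from RefSeq (GRCm38.p6), a build other than that of the gene coordinates. Members, lists, ratios and motif words were chosen with earlier results of these data known. All 42 genes are reported, with values in each library for those past the threshold, and of each further list at most 2 genes with the smallest adjusted p in each direction, plus Nat10, Cdkn1a, Mki67 and Top2a; other genes named without values were chosen after their values were seen, as were Rrm2b, Pold2 and the overlapping genes. The limma and voom p-values weigh a group difference against the spread between libraries of a group, estimated partly from all tested genes. Alternatives covered the pseudocount, filter, scaling, model, replicate block and left-out libraries.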

Additional observations from a re-analysis of the deposited data

How the results depend on the processing

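No call among the 42 genes or the 104 further genes reversed under any alternative run. With a minimum mean of 5 FPKM, 7 replication genes were tested, of which 1 fell and 2 rose, so falls did not outnumber rises there. The median log2 fold change of these 7 genes was 0.10, and 1 of the classes held a gene that fell. At the same minimum 9 further genes fell, and of all 7224 genes tested 1159 fell and 2305 rose. Array weights gave 3007 lower genes overall and 26 lower further genes. Voom on recovered reads gave 26 lower further genes and a median of -0.57 over the replication genes. With libraries rescaled to an equal FPKM sum over genes not encoded in mitochondria, 1 replication gene and 8 further genes rose. Total-read scaling gave 8 further genes that rose. Without both libraries numbered 1, 1 replication gene rose, the median was -0.53, and 5 of the low genes were lower with voom. Leaving out each library in turn gave 5 to 12 lower and 1 to 2 higher replication genes (5 lower without Nat10 flox/flox replicate 2 or 3, 7 without Nat10-CKO replicate 2, 6 without replicate 3), 5 to 7 classes with a gene that fell, a median of -0.40 to -0.13, 1 to 4 low genes lower with voom, 12 to 18 lower and 7 to 10 higher further genes, and 1207 to 1924 lower and 2126 to 3123 higher genes overall. Rrm2, Uhrf1, Pola1 and Rfc1 kept their calls in all 6 of these fits. Of them, Rrm2, Uhrf1 and Pola1 reached the minimum only through the Nat10 flox/flox libraries. The filter was set on all 6 libraries and not redone when a library was left out. Deviations of same-numbered libraries had weak positive correlations over genes (0.06, 0.04 and 0.11), against -0.12 to 0.07 for libraries of unlike number. So few weak correlations cannot tell whether the numbers pair the samples. The replicate block gave 7 lower replication genes, against 11 in the main fit. The cause of these shifts was not tested, except that a higher minimum tests fewer genes and a left-out library leaves fewer samples. Counts were lowest for Orc1, with 7 to 30 reads in a library, and for Ccne2, with 6 to 61.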
